A study of Mus musculus with 6 samples.

Results

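Wide H3K27me3 domains are long stretches of chromatin under trimethylated lysine 27 of histone H3, and were defined here as H3K27me3 ChIP-seq peaks above 10 kb in width on chromosomes 1 to 19 of cultures at 30 h of differentiation. Of the 15187 peaks of that library, 14871 lay on these chromosomes, and 1158 of these (7.79%) were wide domains. ChIP-seq sequences the DNA that an antibody against a histone mark pulls down, and a peak is a region where a peak caller, here MACS, found an excess of reads. The cells were neural stem cells (NSCs) from the subventricular zone (SVZ), a germinal layer of the mouse forebrain, dissected from postnatal C57BL/6 mice and grown as monolayers to passages 5 to 7. The 30 h cultures had been moved to differentiation medium, which lacked EGF and bFGF and held less serum, and the proliferating cultures were kept in medium with both growth factors. There was 1 library each for H3K27me3 at 30 h, H3K27me3 in proliferating cultures and H3K4me3 in proliferating cultures labelled ventral. The titles of the libraries name the 30 h culture N6 and both proliferating ones N5, with no word on what these names mean, so 30 h and proliferating values may come from different cultures. No genotype other than the strain is labelled, and the sources used here give neither the sex nor the number of animals behind each library. No H3K4me3 library at 30 h and no input library was analysed here. All positions are in mm9, the build of the lists. Gene positions of that build were not used here, domains are therefore given by position alone, and the labelled cell type could not be checked against marker genes.

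H3K27me3 is placed by Polycomb repressive complex 2, whose catalytic subunit in these cells is EZH2. The complex can bind the mark that it makes, through its subunit EED, so the mark can extend from a first site along the chromosome. Long H3K27me3 domains are best known from silent developmental genes, above all the Hox clusters, whereas H3K4me3 marks the promoters of active and of poised genes. The presence of both marks in one region is called bivalent, although overlap between peaks of separate libraries does not show both marks on the same chromosome copies.

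The members were chosen by the width of the 30 h peaks, so widths and scores of that library are given as a description. The wide domains covered 21.6 Mb, or 29.9% of the 72.1 Mb under all 30 h peaks of chromosomes 1 to 19. Their median width was 14.9 kb, with 25% below 11.7 kb and 25% above 20.6 kb, whereas the narrower peaks had a median of 3076 bp. Many were thus close to the limit, and 330 were no wider than 12 kb. In the other direction, 303 were above 20 kb, 24 above 50 kb and 2 above 100 kb. The MACS score, which ranks peaks within 1 library and mostly stops at 3100, was 2430 in the median wide domain and never under 449, and 139 in the median narrower peak. It had reached 3100 or more in 475 wide domains (41.0%) and in 34 narrower peaks (0.248%), so the strongest wide domains can hardly be ranked by it.

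The members next to the limit looked alike on both sides of it. The 5 narrowest wide domains were 10.001 to 10.018 kb wide, with scores of 1053 to 1891, and proliferating H3K27me3 peaks covered 21.7 to 69.5% of each. The 5 widest peaks that fell short were 9.982 to 9.999 kb wide, with scores of 751 to 2472 and 0 to 81.2% covered. Peaks picked next to a limit are alike in width by choice, so they cannot show whether wide domains form a separate class. By width, there were 2751 30 h peaks of 5 to 10 kb, 588 of 10 to 15 kb and 267 of 15 to 20 kb.

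Proliferating H3K27me3 peaks covered most of each of the 10 widest domains, often in several pieces, while H3K4me3 differed widely among them. The domain at chr15:102723612-102936717 was 213.1 kb wide. It held 7 proliferating H3K27me3 peaks, which covered 90.1% of it, and 2 H3K4me3 peaks over 0.998% of it. The domain at chr11:96103463-96240940, of 137.5 kb, was covered to 94.9% by 6 proliferating peaks and held no H3K4me3 peak, the nearest being 117.0 kb away. The domain at chr17:36264782-36350614, of 85.8 kb, was the most broken up in the proliferating list, with 11 peaks over 66.2% of it, and held 6 H3K4me3 peaks. The domain at chr7:150514571-150594578, of 80.0 kb, held 8 proliferating peaks over 67.5% and 1 H3K4me3 peak. In contrast to these, the domain at chr11:3024728-3100895, of 76.2 kb, was covered to 99.9% by a single proliferating peak, and an H3K4me3 peak began 0.365 kb outside it. Across the 10, proliferating peaks covered between 66.2% and 100% of the width.

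The remaining members of the 10 widest included neighbours that nearly touched. The domain at chr2:74543715-74618776 (75.1 kb) lay 0.249 kb from another wide domain at chr2:74479443-74543465 (64.0 kb), and proliferating peaks covered 76.8% and 98.6% of them. The domain at chr6:52141780-52210892 (69.1 kb) was covered completely by 1 proliferating peak and lay 0.075 kb from the next wide domain. The domain at chr1:78151418-78220555 (69.1 kb) lay 0.139 kb from the next and held 6 proliferating peaks over 76.7% of its width. The domain at chr9:91241404-91314458 (73.1 kb) stood alone, with the next wide domain 1423 kb away, and held 5 H3K4me3 peaks over 10.2% of its width. Of the 10, 5 had another wide domain within 1 kb. Whether the mark runs across these short gaps was not tested. The Hox genes, which encode transcription factors of the body axis, sit in 4 clusters on chromosomes 2, 6, 11 and 15 in the RefSeq gene table, and 5 of the 10 widest domains were on these chromosomes, as were 27.9% of all wide domains. A shared chromosome does not place a domain at a cluster: chr11:3024728-3100895 and chr11:96103463-96240940 are both counted, though far from each other. Whether any of the 10 widest lies over Hox genes was not examined.

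**Figure D1:**
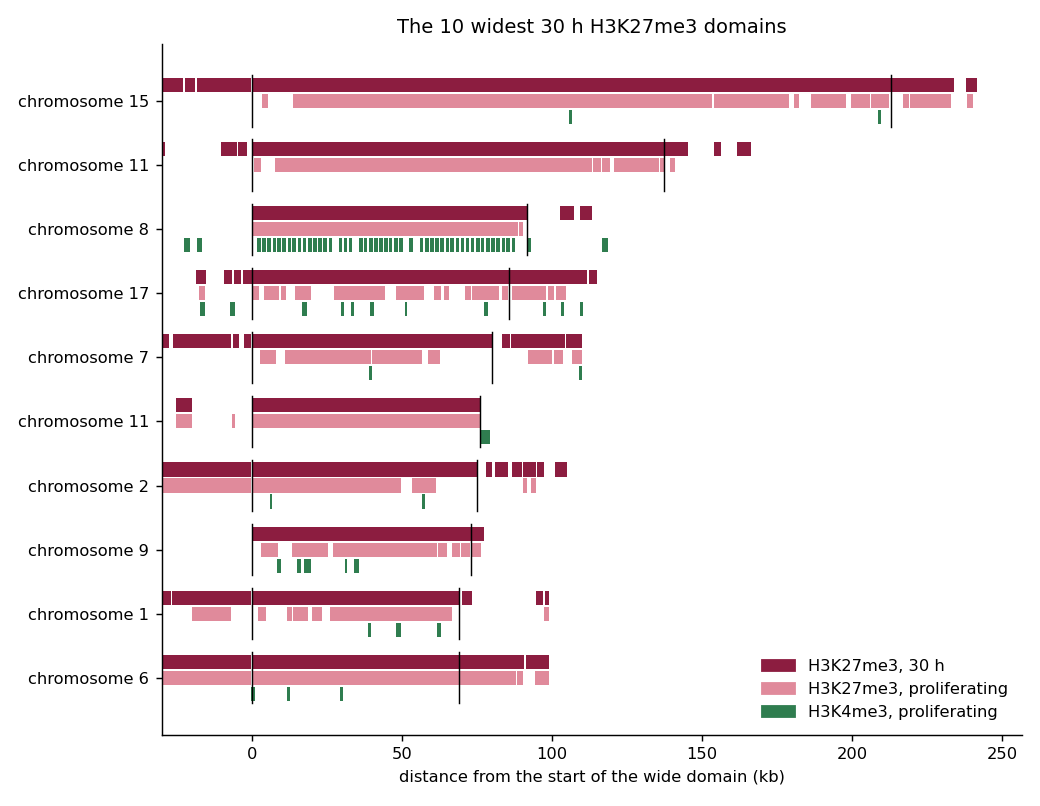
Peaks of H3K27me3 at 30 h (top row of each group), H3K27me3 in proliferating cultures (middle row) and H3K4me3 in proliferating cultures (bottom row) around the 10 widest domains, with distance from the domain's start in kb on the x axis and 1 library per row. Thin vertical lines mark the ends of each domain, and gaps under about 1 kb can vanish at this scale; proliferating peaks covered 66.2 to 100% of each domain, and the chromosome 8 domain holds 48 H3K4me3 peaks.

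The domain at chr8:126060536-126152215, the third in width with 91.7 kb, stood apart in H3K4me3. It held 48 H3K4me3 peaks over 63.0% of its width, while every other wide domain held 7 or fewer. Their middles were a median of 1.72 kb apart, with 25% below 1.67 kb and 25% above 1.76 kb, and their median width was 1238 bp, so they formed a nearly even row. Their scores were low, with a median of 108. Proliferating H3K27me3 covered 98.2% of the domain. A further 7 domains had H3K4me3 over at least 40% of their width, a limit chosen after the values were seen. Among them were chr6:47600778-47637382 (36.6 kb, 7 H3K4me3 peaks over 86.7%) and chr6:47686816-47717197 (30.4 kb, 6 over 84.7%), which lay 49.4 kb from each other and were covered by 1 proliferating H3K27me3 peak each, to 99.8% and 99.9%. The domain at chr1:172992767-173017049 (24.3 kb) had 4 H3K4me3 peaks over 56.7% and 98.8% under proliferating H3K27me3. All 8 were thus marked over most of their length in the proliferating H3K27me3 list, the lowest share being 76.3%. The part of input DNA in these coincidences was not tested.

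Along the chromosomes, wide domains were unevenly spread. There were 4.80 per 10 Mb over the stretch between the first and the last peak of any list. Chromosome 11 had the most, 8.75 per 10 Mb (104 domains), followed by chromosome 19 with 7.38 (43 domains) and chromosome 5 with 7.16 (107 domains). Chromosome 18 had the fewest, 2.05 per 10 Mb (18 domains), next to chromosome 14 with 2.29 (28 domains) and chromosome 16 with 2.31 (22 domains). The chromosomes rich in wide domains were also rich in H3K4me3 peaks. Across the 19 chromosomes, Pearson's r between both densities was 0.82 and Spearman's rho 0.82, given as a description, since the values of a chromosome come from the same few libraries. Per 100 H3K4me3 peaks there were still between 3.24 wide domains on chromosome 15 and 9.25 on chromosome 5. Chromosome 15 therefore combined the widest domain with few others: 24 of its 582 30 h peaks (4.12%) were wide, against 107 of 1044 (10.2%) on chromosome 5.

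**Figure D2:**
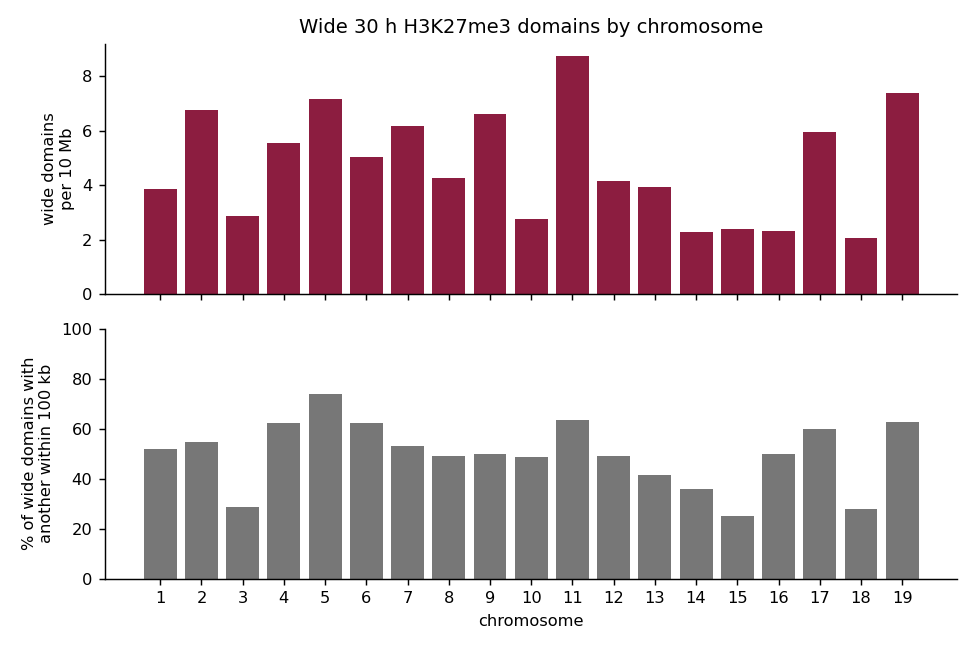
Number of wide 30 h H3K27me3 domains per 10 Mb (top, y axis) and percent of them with another wide domain within 100 kb (bottom, y axis) on each of chromosomes 1 to 19 (x axis), from 1 library. Density runs from 2.05 on chromosome 18 to 8.75 on chromosome 11, and the share with a close neighbour from 6 of 24 domains on chromosome 15 to 79 of 107 (73.8%) on chromosome 5.

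Wide domains lay close to each other. Of the 1158, 630 (54.4%, 95% Wilson confidence interval 51.5 to 57.3%) had another wide domain within 100 kb, against 4571 of 13713 narrower 30 h peaks (33.3%, 32.5 to 34.1%). The share among all 30 h peaks of these chromosomes was 35.0%. With the limit at 20 kb, 32.3% of the 303 domains had another such domain within 100 kb. With 30 h peaks less than 3 kb apart merged first, 56.1% of 1945 domains above 10 kb did. At 10 kb the shares were 27.7% of wide domains and 11.1% of narrower peaks, and at 1000 kb 83.0% and 72.5%, so the gap between them was widest in proportion at short distances. The intervals cover counting error only, and with 1 library no difference between these classes was tested. Neighbouring wide domains were a median of 327 kb apart, but 25% of the 1139 distances were under 26.9 kb and 25% above 1924 kb, and the longest stretch without a wide domain was 35.3 Mb. In other words, tight groups alternated with long empty stretches. Of the distances between neighbours, 179 were at most 10 kb and 110 at most 3 kb, and whether such pairs are 1 stretch was not tested. Wide domains also had other 30 h peaks close by: 797 (68.8%) had a 30 h peak of any width within 3 kb, against 6406 narrower peaks (46.7%).

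**Figure D3:**
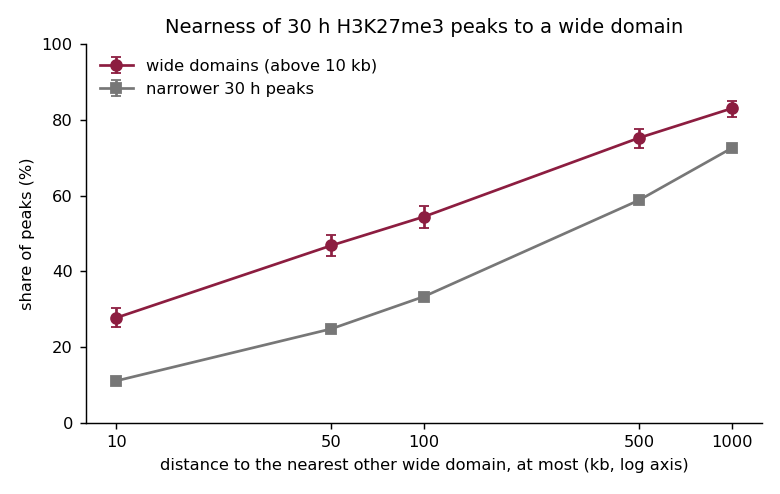
Percent of wide 30 h domains (circles) and of narrower 30 h peaks (squares) that have another wide domain no further away than the distance on the x axis (kb, log axis), from 1 library with 95% Wilson intervals. The circles lie above the squares at each distance, with 54.4% against 33.3% at 100 kb.

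Linked by distances of up to 100 kb, the 1158 domains fell into 741 places, of which 528 held a single domain and 213 a run of 2 or more. There were 119 runs of 2, 44 of 3 and 50 of 4 or more, and those 50 runs held 260 domains. The run with the most domains, at chr6:99846436-100160587, held 12 of 10.1 to 24.1 kb over 314 kb. All 12 met proliferating H3K27me3, which covered 44.9% of their length, and none met H3K4me3. The 4 next runs held 8 domains each and differed in H3K4me3. In the run at chr19:44548582-44920281, 4 of the 8 domains met H3K4me3, with 8 peaks in all, and proliferating H3K27me3 covered 59.99% of the domains. In the run at chr12:57505927-57819054, 3 domains met 8 H3K4me3 peaks and proliferating H3K27me3 covered 41.5%. The runs at chr5:107470701-107723317 and chr9:122461360-122712833 held 1 H3K4me3 peak each, with 49.3% and 38.1% of their domains under proliferating H3K27me3. Runs with many domains were thus not all alike in either mark.

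Of the domains in runs, 225 of 630 (35.7%) met H3K4me3, against 270 of 528 single ones (51.1%), a difference that was not tested. Proliferating H3K27me3 covered about the same in both, with a median of 49.3% of the width in runs and 49.3% in single domains, although those in runs were a little wider (medians of 15.7 and 13.8 kb). Some distances within runs were very short: 110 neighbouring pairs were at most 3 kb apart, 68 of them at most 1 kb, and the shortest distance was 2 bp. Only 8 of these 110 distances (7.27%) were bridged by a single proliferating H3K27me3 peak, and 6 by an H3K4me3 peak.

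Most wide domains met H3K27me3 of proliferating cultures. A proliferating H3K27me3 peak overlapped 1018 of the 1158 by at least 1 bp (87.9%, 95% Wilson interval 85.9 to 89.7%), against 30.4% of all 30 h peaks of these chromosomes and 3503 narrower peaks (25.5%, 24.8 to 26.3%). Since a longer peak meets others more easily, the share of length is the fairer measure. Proliferating peaks covered 54.4% of the length of wide domains, against 18.5% of that of narrower 30 h peaks and 0.679% of the chromosomes outside wide domains. Wide domains also scored higher at 30 h than narrower peaks, and score was not held alike in this comparison. The median wide domain was covered to 49.3%, with 25% of domains below 22.6% and 25% above 71.9%. With 30 h peaks less than 3 kb apart merged first, which gave 1945 domains above 10 kb, the median was 25.5%, and among all 30 h peaks above 5 kb it was 29.9%. Of all, 89 were covered to at least 90%, and 4 completely.

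Coverage was higher in wider domains also among the 1158. It was 38.2% of the length in the 588 domains of 10 to 15 kb, 48.3% in the 267 of 15 to 20 kb, 65.5% in the 279 of 20 to 50 kb and 83.6% in the 24 above 50 kb. The share that met any proliferating peak was 80.6%, 91.4%, 98.9% and 100% in the same classes. Below the limit the length covered was 27.6% at 5 to 10 kb and 7.39% up to 2 kb, so the trend ran through the limit without a step. The median 30 h score rose with width too, from 548 at 5 to 10 kb to 1448 at 10 to 15 kb and 2904 at 15 to 20 kb. It was 3100 in both wider classes, and width was not separated from score here. Over the wide domains, Spearman's rho between width and percent covered was 0.39, as a description of domains of 1 library. Coverage still varied widely among domains of like width. Of the 132 domains above 30 kb, 114 were covered to at least 50%, but the domain at chr2:153717488-153755754 (38.3 kb) was covered to 4.88% by 1 peak and the domain at chr14:67901773-67937337 (35.6 kb) to 18.9% by 3 peaks; both were chosen after their values were seen.

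**Figure D4:**
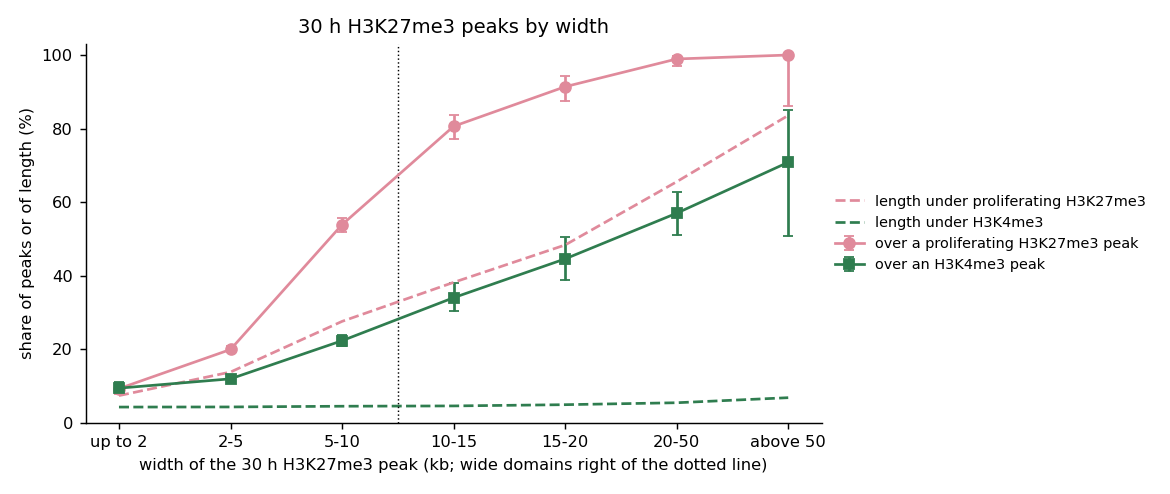
Percent of 30 h H3K27me3 peaks that overlap a proliferating H3K27me3 peak (circles) or an H3K4me3 peak (squares), with 95% Wilson intervals, and percent of their length under each (dashed lines), by width of the 30 h peak (x axis, kb), from 1 library per mark. Proliferating H3K27me3 covers 38.2% of the length at 10 to 15 kb and 83.6% above 50 kb, while H3K4me3 covers 4.59% and 6.83%, the last being 3.71% without the chromosome 8 domain that holds 48 H3K4me3 peaks.

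Seen from the proliferating list, the wide domains took in nearly all of its own wide peaks. Of 298 proliferating H3K27me3 peaks above 10 kb on chromosomes 1 to 19, 295 (99.0%) lay under a wide 30 h domain, and the other 3 met a narrower 30 h peak. Of all 9013 proliferating peaks there, 1988 (22.1%) lay under wide domains, with 42.5% of the covered length. They were wider and stronger than the rest, with a median width of 3258 bp and score of 186, against 1947 bp and 80.5 for those elsewhere. Those elsewhere that met a narrower 30 h peak lay between, with 2286 bp and 115. Wider peaks also meet a domain more easily. Of the wide domains, 281 (24.3%) met a proliferating peak that was itself above 10 kb.

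Several short proliferating peaks often stood where 1 wide peak was called at 30 h. Of the wide domains, 442 held 1 proliferating peak, 333 held 2, 156 held 3 and 87 held 4 or more, up to 11. Together 576 (49.7%) held at least 2, against 2.13% of narrower 30 h peaks, which have less room for several. Per 100 kb there were 9.26 proliferating peaks in wide domains and 7.54 in narrower 30 h peaks. The 978 distances between proliferating peaks of the same domain had a median of 0.837 kb, 806 of them (82.4%) were at most 3 kb, and the longest was 13.9 kb. These distances made up the smaller part of what was not covered. Of the 8.04 Mb of uncovered length in domains with a proliferating peak, 6.41 Mb (79.8%) lay at the ends, outside the outermost proliferating peaks, and 1.63 Mb between them.

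The 30 h domain ran past the outermost proliferating peak at most ends, a direction that the choice of members by 30 h width favours. At 1850 of 2036 ends (90.9%) the 30 h peak reached further, by a median of 2.56 kb, and at 184 ends (9.04%) the proliferating peak did, by a median of 0.306 kb. For peaks chosen by width in the other list, the 298 proliferating peaks above 10 kb (a comparison added after seeing the data), the outermost 30 h peak reached further at 548 of 596 ends (91.9%), by a median of 3.52 kb. In narrower 30 h peaks that met a proliferating peak, the 30 h peak reached further at 5590 of 7006 ends (79.8%), by a median of 0.929 kb. In 848 wide domains (83.3% of 1018) the proliferating peaks were inside both ends, in 156 (15.3%) they ran past 1 end and in 14 (1.38%) past both. The surplus was lopsided, with a median of 4.15 kb at the longer and 0.997 kb at the shorter side. Coverage by distance was taken over all 2316 ends, including those of the 140 domains without a proliferating peak. There, proliferating H3K27me3 covered 53.3% of the positions 4 to 5 kb inside an end, 32.6% at 1 to 2 kb and 18.0% in the last 1 kb. Outside, it covered 6.28% in the first 1 kb and 12.5% at 9 to 10 kb. No list states its depth, and the 30 h list has more and wider peaks throughout, and the cultures may differ, so depth, threshold, culture and spread of the mark cannot be told apart from these values.

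The 140 wide domains without a proliferating H3K27me3 peak were narrower and scored lower at 30 h than the others, with a median width of 11.9 kb against 15.6 kb and a median score of 1074 against 2759. Of these, 3 were above 20 kb. The widest were chr5:38403327-38429167 (25.8 kb) and chr7:103664261-103689578 (25.3 kb), whose nearest proliferating peaks were 40.8 kb and 5.27 kb away. The domain at chr1:195247338-195268713 (21.4 kb) had reached a score of 3100 and lay 32.0 kb from a proliferating peak. The domains at chr11:64061746-64081569 (19.8 kb) and chr7:150488383-150507614 (19.2 kb) lay 6.63 and 9.81 kb from one. None of these 5 met H3K4me3. For 56 of the 140, the nearest proliferating peak was at most 10 kb off, and for 31 it was more than 100 kb off, up to 0.971 Mb. A wide domain with a proliferating peak stood within 100 kb of 65 (46.4%). Among all 1158 wide domains, 54.4% had another wide domain of any kind within 100 kb. The matching share for the other wide domains was not computed, so such closeness is not shown to be particular to the 140. Whether the 140 gained the mark or fell under the threshold of the proliferating list was not tested.

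By chromosome, the share of wide domains with a proliferating peak was between 80.0% and 100%, apart from chromosome 16. There it was 14 of 22 (63.6%, 95% Wilson interval 43.0 to 80.3%), and the median domain was covered to 21.8%. Chromosome 8 had the highest median coverage, 70.5% over 55 domains. Chromosome 16 was singled out after its value was seen, and its interval reaches 80.3%, so counting error alone leaves room for a share like that of chromosome 10, 28 of 35 (80.0%).

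H3K4me3 peaks stood in fewer than 50% of the wide domains. They overlapped 495 of 1158 (42.7%, 95% Wilson interval 39.9 to 45.6%), against 16.0% of all 30 h peaks and 1885 narrower peaks (13.7%, 13.2 to 14.3%). The share depended on the strength and extent asked for: it was 7.77% with the stronger 50% of H3K4me3 peaks and 19.4% with at least 10% of the domain covered. The surplus over narrower peaks went with width. Per 100 kb there were 3.59 H3K4me3 peaks in wide domains (3.39 without the chromosome 8 domain with 48) and 3.93 in narrower 30 h peaks, and H3K4me3 covered 5.17% of the length (4.92% without that domain) and 4.38%. Both lay above the 1.55% covered on the chromosomes outside wide domains. Of the domains, 338 held 1 H3K4me3 peak, 106 held 2 and 51 held 3 or more. Where there was any, it covered a median of 9.39% of the domain, and in 428 of these 495 domains (86.5%) it covered less than 20%. At least 1 H3K4me3 peak lay wholly inside in 426 domains.

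H3K4me3 within the domains lay where H3K27me3 was also found in proliferating cultures. H3K4me3 covered 8.67% of the 11.7 Mb of wide domains under proliferating H3K27me3 (8.25% without the chromosome 8 domain) and 0.982% of the 9.83 Mb that was not under it. The share outside proliferating H3K27me3 is lower than the 1.55% on the chromosomes outside wide domains. Of the 660 H3K4me3 peaks wholly inside a wide domain, 642 (97.3%) overlapped a proliferating H3K27me3 peak. This is a share of peaks that meet one, a measure unlike the 54.4% of the domains' length that proliferating peaks covered. The chromosome 8 domain was not set apart in this count. Both proliferating libraries have N5 in their title, but only that of H3K4me3 is labelled ventral, and whether they come from the same culture is not stated.

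The share of domains with H3K4me3 followed their coverage by proliferating H3K27me3. It was 6.43% (9 of 140) in domains with none, 17.5% (32 of 183) below 25%, 34.3% (91 of 265) at 25 to 50%, 58.0% (181 of 312) at 50 to 75% and 70.5% (182 of 258) at 75% or more. Wider domains were in the upper classes, with a median of 19.2 kb in the highest and 11.9 kb in the lowest. Among domains of 10 to 15 kb, which were of similar width, the shares were still 7.89% (9 of 114, 95% Wilson interval 4.21 to 14.3%) with none and 64.4% (47 of 73, 52.9 to 74.4%) in the highest class. Over these narrow ones together, 191 of 474 domains with a proliferating peak met H3K4me3 (40.3%, 36.0 to 44.8%), against 7.89% of the 114 without one. The 30 h score was not held alike: over domains of all widths its median was 1074 with none and 3100 in the highest class. In all, 486 wide domains met both lists, 532 proliferating H3K27me3 alone, 9 H3K4me3 alone and 131 neither.

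All 9 domains with H3K4me3 but no proliferating H3K27me3 were 10.1 to 14.5 kb wide and held 1 H3K4me3 peak each, over 1.13 to 26.4% of the width. The domain at chr7:116315298-116325638 had the largest share, 26.4%, with a proliferating H3K27me3 peak 11.5 kb away, and the domain at chr2:181494602-181505106 had 21.96%, with one 22.8 kb away. Proliferating H3K27me3 was 11.5 to 787 kb away from the 9.

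H3K4me3 peaks within wide domains were narrow and weak, and those at the domains' ends were not. The 660 wholly inside had a median width of 1297 bp and a median score of 306, and 23 of them (3.48%) had a score of 3100 or more. The 109 that lay across an end had a median width of 1999 bp and score of 2764, and 51 (46.8%) had reached 3100. The 98 that stood outside but within 2 kb of an end had 1887 bp and 3100, and 52 (53.1%) had reached that score. Those at the ends were thus much like the 17170 H3K4me3 peaks further away, whose median width was 2004 bp, whose median score was 2946 and of which 48.7% had reached 3100. Weaker H3K4me3 peaks were not particular to wide domains. The 1857 under narrower 30 h peaks only had a median width of 1525 bp and score of 853, and 17.2% had reached 3100. The 15411 under no 30 h peak had 2070 bp and 3100, and 52.5% had reached it. Lying wholly inside favours narrow peaks, and lying across an end favours wide ones. The chromosome 8 domain with 48 peaks was not set apart here. Proliferating H3K27me3 overlapped 97.3% of the peaks wholly inside, 56.0% of those across an end, 7.14% of those just outside and 7.56% of those further away. The distance of 2 kb was chosen after the profile around the ends had been seen.

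In that profile, H3K4me3 covered 5.68% of the positions 4 to 5 kb inside an end, 2.66% at 1 to 2 kb inside, 4.15% in the last 1 kb, 5.62% in the first 1 kb outside and 2.34% at 9 to 10 kb outside. It thus dipped within the domain near its end and peaked again just past it. Across an end or within 2 kb outside it, H3K4me3 was found at 213 of 2316 ends (9.20%), in 183 domains at 1 end and in 15 domains at both. In 65 domains there was both an H3K4me3 peak wholly inside and one at an end, while 599 domains (51.7%) had neither. Within the domains, the middles of H3K4me3 peaks favoured the centre. With each domain divided into an inner, an intermediate and an outer zone of equal length, 310 of 697 middles (44.5%) lay in the inner, 240 (34.4%) in the intermediate and 147 (21.1%) in the outer zone, and even spread would put equal numbers in the 3. The chromosome 8 domain with its row of 48 peaks is part of these counts.

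**Figure D5:**
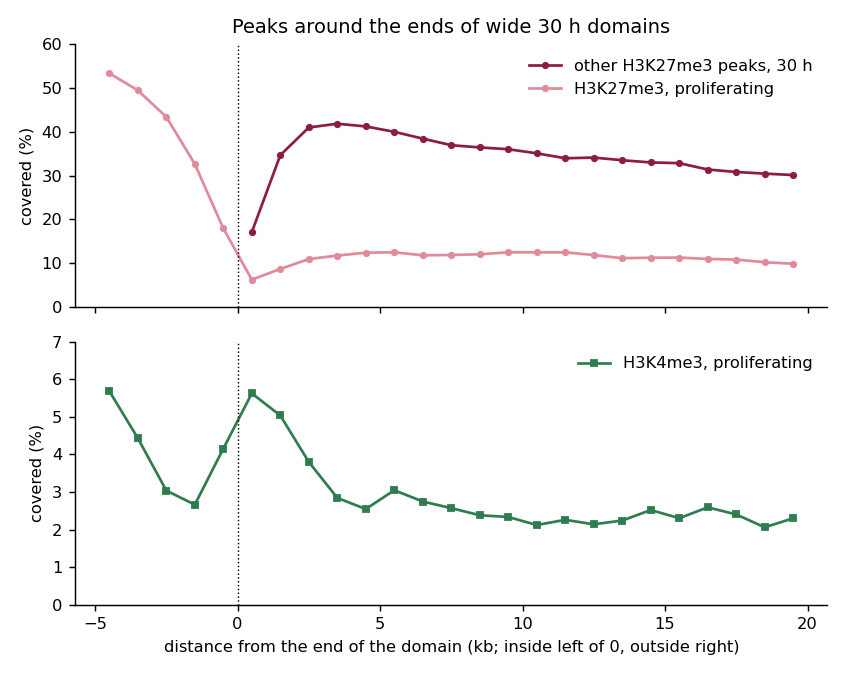
Percent of positions covered, in bins of 1 kb, by proliferating H3K27me3 and other 30 h H3K27me3 peaks (top) and by H3K4me3 (bottom) from 5 kb inside to 20 kb outside the 2316 ends of wide domains (x axis, kb, outside to the right of 0), both ends of each domain pooled and 1 library per line. Inside, the 30 h list covers everything by definition and is not drawn. Proliferating H3K27me3 falls towards the end, from 53.3% to 18.0%, and H3K4me3 has a low of 2.66% inside and a high of 5.62% just outside.

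The H3K4me3 share also differed between chromosomes, from 30 of 92 domains on chromosome 7 (32.6%, 95% Wilson interval 23.9 to 42.7%) to 13 of 18 on chromosome 18 (72.2%, 49.1 to 87.5%). These intervals do not overlap, but the 2 chromosomes were picked as the lowest and the highest of 19.

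The 5 wide domains with the highest score values, 3177.87 to 3233.06, were 10.1 to 21.7 kb wide. Each of the 10 widest had a score of exactly 3100, where the score mostly stops. These 5 are therefore not shown to be the most strongly marked. The highest value was that of chr4:44735050-44754414 (19.4 kb, score 3233.06), which held 4 proliferating peaks over 36.7% and no H3K4me3. Next was chr15:102996974-103012803 (15.8 kb, score 3227.04), 39.3 kb from the neighbouring wide domain, with 78.1% under proliferating H3K27me3 and 2 H3K4me3 peaks. Among the widest domains without any H3K4me3 peak were also chr12:74009000-74069942 (60.9 kb), covered to 47.9% by 5 proliferating peaks, and chr6:23174868-23230662 (55.8 kb), covered to 53.5% by 2. The nearest H3K4me3 peaks were 75.2 and 91.4 kb away from them, so these were long H3K27me3 stretches with no H3K4me3 at either end.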

How the data were processed

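The study deposited 1 peak list per ChIP library. The submitters' processing notes name Bowtie2 and mm9, and the methods state that MACS called H3K27me3 peaks with neither model building nor local lambda. Its version and threshold, how it was run for H3K4me3, and whether inputs served as controls: not given in the sources used here. MACS gave each peak a score, the authors' deposited value, with a lowest value of 50.01 to 50.03 per list, and 46.1% of the H3K4me3 peaks are at 3100 or more. Scores were compared within a list only. Read counts are not part of the lists, and depth is therefore unknown.

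Starts were raised by 1 to count from 1. Overlaps, obtained in Python 3.11.15 (scipy 1.17.1, pandas 2.3.3, numpy 2.4.6), gave the same counts of domains in bedtools 2.31.1, and were tested on simulated data. Figures used matplotlib 3.10.9. Distances run from edge to edge. Chromosome length was taken from the first to the last peak of any list. The domains named were the 10 widest, 5 on each side of the width limit, the 5 highest scores, the 5 widest without proliferating H3K27me3 or without H3K4me3, the 5 with most H3K4me3 peaks and the 5 runs with most domains, and others are said to be chosen afterwards; the 9 with H3K4me3 alone are a whole class. Members and lists were chosen with earlier results of these data known. With 1 library per condition nothing was tested against variation between libraries.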

Additional observations from a re-analysis of the deposited data

How the results depend on the processing

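No paired analysis was possible because each condition has 1 library. Of 48 alternative values, 17 stayed within the counting interval (within 1.5 times for numbers and lengths) and 31 moved out of it. Among the 17 were all those with chromosome X added and all those from the stronger 50% of the 30 h list. That stronger part holds every wide domain, and chromosome X takes their number only to 1164, so these values could hardly move. With a width above 5 kb there were 3909 domains (40.3 Mb), of which 73.6% had another within 100 kb, 64.0% met proliferating H3K27me3, with a median of 29.9% covered, and 28.4% met H3K4me3, with 0.372 peaks per domain. Above 20 kb the values were 303 domains, 9.94 Mb, 32.3%, 99.0%, 69.2%, 58.1% and 1.26, in the same order. With 30 h peaks less than 3 kb apart merged, 1945 domains covered 42.8 Mb, and 56.1% of them had another within 100 kb. Of these merged domains, 77.1% met proliferating H3K27me3, with a median of 25.5% covered. H3K4me3 was met by 39.2% of them, with 0.588 peaks per domain against 0.669 as deposited. Among the wide domains as deposited, the share with a neighbour was 46.8% at 50 kb and 75.2% at 500 kb. With the stronger 50% of proliferating peaks 79.3% of domains met one and the median coverage was 43.5%, and 49.2% were covered to at least 50%. With the stronger 50% of H3K4me3 peaks the share of domains that met one was 7.77%, and 0.0803 peaks were found per domain. With at least 10% covered by H3K4me3 the share was 19.4%. With H3K4me3 peaks wholly inside the domain it was 36.8%, with 0.570 peaks per domain, and with those within 2 kb of an end added 48.4%, both shares being added after seeing the data. Beyond the changed limits, the cause of each shift was not tested. Shares of domains with a gene start inside were not computed, since mm9 gene positions were not used here, and depth, which is unknown, limits every comparison between lists.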

Other observations

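Chromosome X held 6 wide peaks among its 142 peaks at 30 h, the widest 31.3 kb. Of these, 4 met proliferating H3K27me3, with a median of 45.4% covered, and 3 met H3K4me3. A further 15 peaks above 10 kb lay on chromosome Y or unplaced contigs, which were left out.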
